A study of Mus musculus with 4 samples.

Results

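The genes of the epidermal growth factor (EGF) receptor family, its ligands and the protease that releases them were examined as a list of 9 symbols: the ligands *Areg*, *Ereg*, *Hbegf*, *Tgfa* and *Btc*, the receptors *Egfr*, *Erbb2* and *Erbb3*, and *Adam17*. All 9 were among the 22063 genes listed in the deposited table, and 8 of them passed the filter on low counts that left 11727 genes for testing. *Ereg* did not pass. The members were taken by symbol.

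The ligands are made as membrane-bound precursors, and the metalloprotease ADAM17 cuts several of them from the cell surface. A released ligand binds EGFR, which pairs with itself or with ERBB2 or ERBB3 and passes the signal to the RAS-ERK and PI3K-AKT pathways. In the kidney tubule this system is known for its part in regrowth of the epithelium after injury and, when it stays active, in fibrosis.

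RNA-sequencing was made from 4 libraries of TKPT cells (TKPTS in the study's methods), a wild-type mouse renal proximal tubular epithelial cell line. All cells were kept for 24 h in 1% O2 and 5% CO2 and then for 12 h in normal oxygen, an in vitro model of ischemia-reperfusion injury called hypoxia/reoxygenation (H/R). Replicates 2 and 3 of the Scrambled group received a control siRNA, and replicates 1 and 3 of the Itgb6-siRNA group received a siRNA against *Itgb6*, which encodes the β6 subunit of integrin αvβ6. The comparison asks which transcripts differ between H/R-injured tubular cells with and without the *Itgb6* siRNA. Libraries without transfection or without hypoxia were not analysed here, so the levels are those of transfected and injured cells of 1 line in culture. The labels do not say whether the replicates were separate cultures, and p-values therefore measure the spread between these libraries only.

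The libraries held between 15435074 and 17220281 estimated counts. Replicates of a group differed by more than sampling noise, with a chi-square per gene of 3.21 in Scrambled and 4.08 in Itgb6-siRNA. *Itgb6* itself had 285 and 284 counts in Scrambled and 279 and 260 counts in Itgb6-siRNA, and the log2 fold change fitted by edgeR was -0.0051 (95% interval -0.27 to 0.26, Benjamini-Hochberg adjusted p = 0.991). The targeted transcript was thus not measurably lower in the libraries labelled Itgb6-siRNA, and every direction below is that of the labels. Epithelial markers were present (6 of 6, among them *Cdh1* and *Krt19*), with summed levels of 4975 to 4990 CPM (counts scaled to a common library total) in Scrambled and 4704 to 4824 CPM in Itgb6-siRNA. Of 15 proximal tubule markers 12 had counts, but the transporters *Slc34a1*, *Slc5a2* and *Slc22a6* were at 0 in every library and the regulator *Hnf4a* had at most 1 count. The summed level of that list was 531 to 621 CPM in Scrambled and 579 to 631 CPM in Itgb6-siRNA, and 1 of its 9 tested genes, the water channel gene *Aqp1*, was higher in Itgb6-siRNA (log2 fold change 0.59, edgeR adjusted p = 0.000617). Of the 6 markers of later nephron segments, *Umod*, *Calb1*, *Aqp2* and *Atp6v1b1* were at 0. The 7 markers of injured proximal tubule all had counts, *Havcr1* with 3791 to 4501, and their summed level was 1628 to 1650 CPM in Scrambled and 1599 to 1604 CPM in Itgb6-siRNA. No gene of that list or of the epithelial list had both a change of over 1.2-fold and an unadjusted p under 0.05 by edgeR. *Vim* had 12 and 12 counts in Scrambled and 18 and 28 counts in Itgb6-siRNA (log2 fold change 1.00, edgeR adjusted p = 0.289). At an adjusted p under 0.05 by edgeR, *Havcr1* was higher in Itgb6-siRNA (log2 fold change 0.19, adjusted p = 0.0358). By the same test *Lcn2* (-0.17, adjusted p = 0.0322) and *Krt8* (-0.20, adjusted p = 0.00881) were lower in Itgb6-siRNA. Of the 6 epithelial markers, 4 had an unadjusted p under 0.05 by edgeR, all with lower values in Itgb6-siRNA. The share of all genes tested at that threshold is not given here, so this count has no comparison. The median log2 fold change of the 6 markers was -0.146, against 0.00017 over all genes tested. The 8 leukocyte markers summed to 132 to 141 CPM and 121 to 127 CPM, nearly all from *Cd68* and *Csf1r*, with *Fcer1g* at 0 and at most 6 counts of *Ptprc*. The 7 fibroblast markers (*Acta2* at 0) and the 6 endothelial markers (*Emcn* at 0) each summed to less than 5 CPM in every library. The part of these lists in the values below was not tested.

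By the deposited FPKM (fragments per kilobase of transcript, scaled to the library), *Egfr* was the most abundant member, *Hbegf* the leading ligand and *Ereg* nearly absent. Levels of different genes were compared on this scale, which is per transcript length. Over the 4 libraries *Egfr* stood at 48.8 ± 2.05 FPKM (SD, n = 4), above 88.6% of the 15357 genes with an FPKM above 0. *Hbegf* at 28.4 ± 2.41 FPKM and *Erbb3* at 27.1 ± 1.53 FPKM followed, and their ranges over the libraries overlapped. *Adam17* at 13.4 ± 0.945 FPKM overlapped *Tgfa* at 11.4 ± 0.724 FPKM, and *Areg* at 4.10 ± 0.676 FPKM overlapped *Erbb2* at 3.70 ± 0.385 FPKM. *Btc* at 0.966 ± 0.193 FPKM stood below all of these and above *Ereg*, which averaged 0.036 FPKM. The order was thus *Egfr*, then the pair *Hbegf* and *Erbb3*, the pair *Adam17* and *Tgfa*, the pair *Areg* and *Erbb2*, *Btc*, and *Ereg*. The first place of *Egfr* rests on an implied length of 5901 to 6478 bases (below). The transcript of the full receptor, Egfr-201, has 10208 bases. If only Egfr-201 and the shorter Egfr-202 were present, Egfr-201 would stand at 20.2 to 22.8 FPKM, below *Hbegf* and *Erbb3*.

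**Figure D1:**
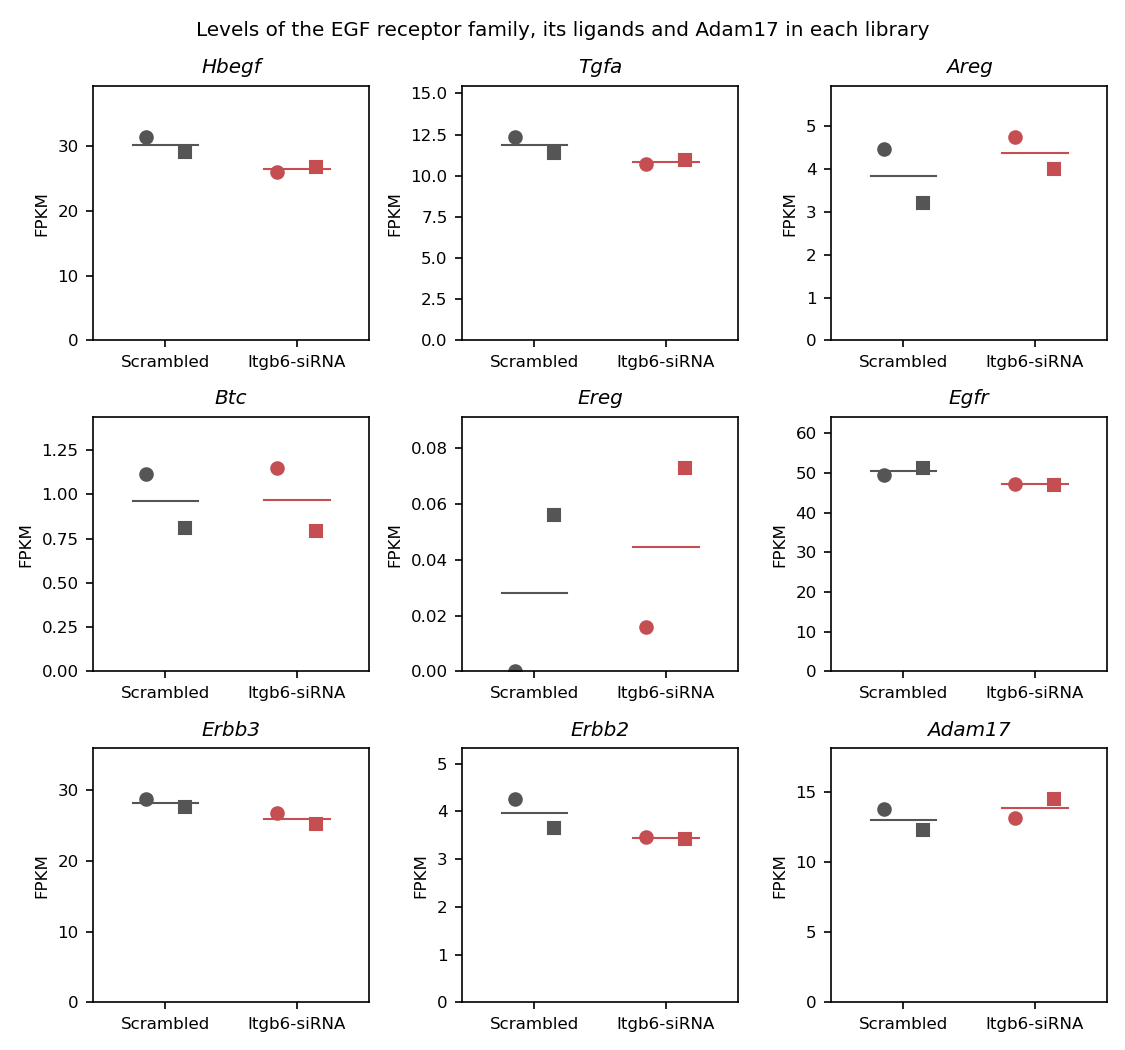
Deposited FPKM of the 9 genes in each library, with a vertical axis of its own and from 0 for each gene. Circles are Scrambled replicate 2 and Itgb6-siRNA replicate 1, squares are replicate 3 of each group, and lines are group means (n = 2). *Hbegf*, *Tgfa*, *Egfr*, *Erbb3* and *Erbb2* have both Itgb6-siRNA values below both Scrambled values, while the values of *Areg*, *Btc*, *Ereg* and *Adam17* overlap between the groups. The share of all genes whose FPKM do not overlap is not given here. In CPM, *Egfr* overlaps between the groups, and 49.2% of all genes tested do not.

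None of the 8 members tested passed both of the study's thresholds, a change of more than 1.2-fold with an unadjusted p below 0.05, which 9.57% of all genes tested passed (610 genes or 5.2% lower and 512 genes or 4.37% higher in Itgb6-siRNA). *Hbegf* alone had an unadjusted p under 0.05 by edgeR, and the share of all genes at that threshold is not given here. No member had an adjusted p under 0.05 by edgeR, a threshold that 4.62% of genes passed (2.52% lower and 2.11% higher). DESeq2 also called no member. The log2 fold changes (Itgb6-siRNA minus Scrambled, throughout) were below 0 in 4 members and above 0 in 4, with a median of -0.034 against 0.00017 over all genes tested. The CPM of the groups did not overlap in 4 members (*Hbegf*, *Tgfa*, *Erbb2* and *Erbb3*, all lower in Itgb6-siRNA), a pattern shown by 49.2% of all genes tested, and in the lower direction by 25.4%. With 2 libraries against 2, an exact permutation of the labels cannot give a two-sided p below 0.333.

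**Figure D2:**
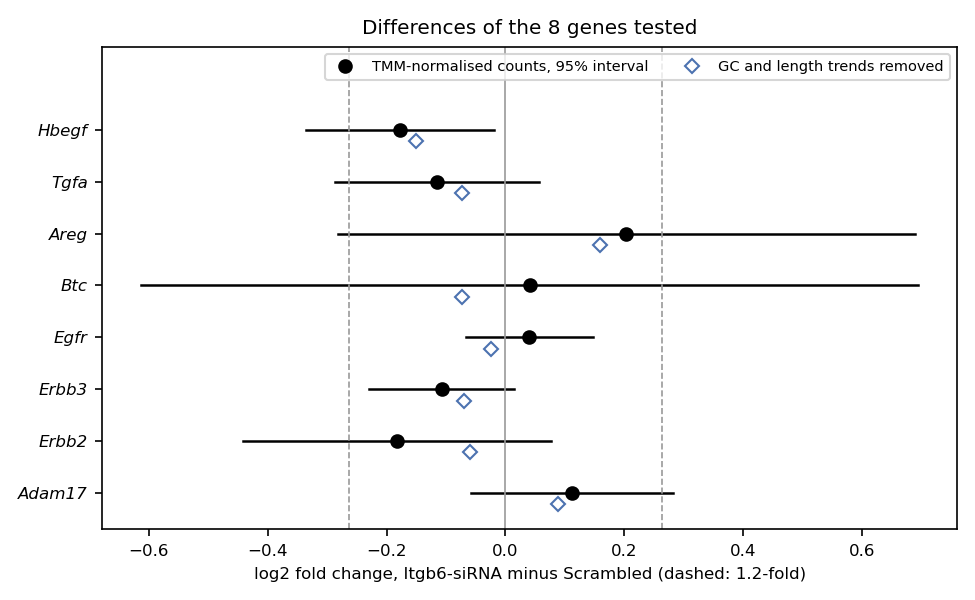
Log2 fold change of the 8 members tested, Itgb6-siRNA minus Scrambled (horizontal axis). Filled circles and bars are the values from TMM-normalised counts with their 95% intervals, open diamonds are the values with trends on GC content and length removed, and dashed lines mark a 1.2-fold change either way. The interval of *Hbegf* lies below 0, those of *Egfr* and *Erbb3* lie within the dashed lines, and the diamonds of *Egfr* and *Btc* lie on the other side of 0 from their circles.

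Among the ligands, *Hbegf* (ENSMUSG00000024486), which encodes heparin-binding EGF-like growth factor, a ligand of EGFR and ERBB4, had the smallest p of the members. Its counts were 1211 and 1189 in Scrambled and 957 and 1065 in Itgb6-siRNA, or 74.3 and 68.8 CPM against 61.8 and 64.7 CPM. Both Itgb6-siRNA libraries were below both Scrambled libraries. The level was 11.6% lower (log2 fold change -0.18, SE 0.078, 95% interval -0.34 to -0.02), which is short of the 1.2-fold threshold. The unadjusted p of edgeR was 0.0294, and it did not hold after adjustment (adjusted p = 0.204). The unadjusted p was 0.0719 by DESeq2, and 0.053 by edgeR with the trends on GC content and length removed. Leaving out 1 library at a time kept the sign, with log2 values from -0.23 to -0.12, but without Scrambled replicate 2 the unadjusted p was 0.227 and without Itgb6-siRNA replicate 1 it was 0.118. On the same CPM scale, the genes whose pattern over the 4 libraries came nearest to that of *Hbegf*, among 3525 genes of like level, were *Ppp5c*, *Chaf1a* and *Elof1*, with root mean square differences of 0.0089, 0.0117 and 0.0122 in centred log2 CPM. The likeness rests on 4 libraries and is a description.

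*Tgfa* (chr6:86195223-86275719, plus strand, GRCm38), which encodes transforming growth factor alpha, a ligand of EGFR, had 907 and 886 counts in Scrambled and 750 and 827 counts in Itgb6-siRNA. In CPM the Scrambled libraries stood at 55.6 and 51.3 and the Itgb6-siRNA libraries at 48.5 and 50.2, again without overlap. This gave a log2 fold change of -0.11 (SE 0.084, 95% interval -0.29 to 0.06, edgeR adjusted p = 0.503). *Tgfa* shares exonic sequence with *Gm43917* on the opposite strand, and since the libraries do not keep strand, reads of the overlap cannot be told apart.

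*Areg* (chr5:91139599-91148432, plus strand), which encodes amphiregulin, is known as a transcript induced by EGFR signalling and by YAP. It had 88 and 67 counts in Scrambled and 89 and 81 counts in Itgb6-siRNA, or 5.40 and 3.88 CPM against 5.75 and 4.92 CPM. One Scrambled library was low and the other lay between the Itgb6-siRNA libraries. The log2 fold change of 0.20 had an interval from -0.28 to 0.69 (edgeR adjusted p = 0.710), and without Scrambled replicate 3, the low library, it was -0.015. The interval reaches past a 1.2-fold change in both directions, so a rise or a fall of that size in *Areg* could be missed.

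*Btc* (chr5:91357261-91402994, minus strand), which encodes betacellulin, a ligand of EGFR and ERBB4, had 51 and 40 counts in Scrambled and 51 and 38 counts in Itgb6-siRNA. The CPM values of 3.13 and 2.32 in Scrambled and 3.30 and 2.31 in Itgb6-siRNA covered nearly the same range. Its log2 fold change was 0.041 with an interval from -0.61 to 0.69 (edgeR adjusted p = 0.968). *Ereg* (chr5:91074622-91093646, plus strand), which encodes epiregulin, had 0 and 4 counts in Scrambled and 1 and 5 counts in Itgb6-siRNA. These counts are near the limit of detection, since a count of 0 allows up to 3 counts, and no fold change is given. *Ereg* also overlaps *Gm19610* on the opposite strand. *Areg*, *Ereg* and *Btc* lie on the same chromosome, all within the stretch chr5:91074622-91402994, yet their mean FPKM ranged from 0.036 for *Ereg* to 4.10 for *Areg*.

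The makeup of the ligand transcripts differed little between libraries. Of the FPKM summed over the 5 ligands, *Hbegf* made up 63.7% and 65.3% in Scrambled and 61.1% and 63.0% in Itgb6-siRNA. *Tgfa* made up 25.0% and 25.5% in Scrambled and 25.1% and 25.6% in Itgb6-siRNA. *Areg* had 9.04% and 7.20% in Scrambled and 11.1% and 9.36% in Itgb6-siRNA. The share of *Hbegf* was thus lower and that of *Areg* higher in Itgb6-siRNA, in both cases without overlap between the groups. Shares of a sum are not independent of each other, and the FPKM of *Areg* itself overlapped between the groups. In CPM, 49.2% of all genes tested did not overlap. *Btc* made up at most 2.69% and *Ereg* at most 0.171% in any library. The summed ligand FPKM was 49.4 and 44.5 in Scrambled and 42.8 and 42.7 in Itgb6-siRNA. These shares were not tested, and in bulk RNA fewer cells of a kind and less RNA per cell cannot be told apart.

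Among the receptors, *Erbb3* (chr10:128567523-128589652, minus strand), whose product has little kinase activity of its own and signals through a partner, had 2805 and 2866 counts in Scrambled and 2481 and 2526 counts in Itgb6-siRNA. This came to 172 and 166 CPM against 160 and 153 CPM, with both Itgb6-siRNA libraries lower. Its log2 fold change was -0.11 (SE 0.060, 95% interval -0.23 to 0.01, edgeR adjusted p = 0.345). The interval lies within a 1.2-fold change in either direction (0.263 on the log2 scale), which sets a bound on any change in *Erbb3* in these libraries.

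*Erbb2* (chr11:98412470-98437716, plus strand), which encodes the partner receptor that binds no known ligand of its own, had 346 and 315 counts in Scrambled and 268 and 287 counts in Itgb6-siRNA. Its CPM values were 21.2 and 18.2 in Scrambled and 17.3 and 17.4 in Itgb6-siRNA, so the Scrambled libraries were apart from each other by more than the second of them was from Itgb6-siRNA. The log2 fold change of -0.18 was as large as that of *Hbegf*, but its error was larger (SE 0.13, 95% interval -0.44 to 0.08, edgeR adjusted p = 0.477). *Erbb2* overlaps *Mien1* on the opposite strand.

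*Egfr* (chr11:16752203-16918158, plus strand), the receptor of all 5 ligands, had 4739 and 5239 counts in Scrambled and 4685 and 5071 counts in Itgb6-siRNA. In CPM these were 291 and 303 in Scrambled and 303 and 308 in Itgb6-siRNA, and the groups overlapped. The log2 fold change was 0.040 (SE 0.053, 95% interval -0.067 to 0.15, edgeR adjusted p = 0.745), and this interval too lies within a 1.2-fold change either way. The receptors' shares of their summed FPKM were 60.0% to 62.1% for *Egfr*, 33.3% to 34.8% for *Erbb3* and 4.42% to 5.16% for *Erbb2* over the 4 libraries, and the groups overlapped in all 3 shares. These shares depend on the length behind the FPKM of *Egfr*, given below.

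The deposited FPKM of *Egfr* went the other way from its counts. It was 49.6 and 51.3 FPKM in Scrambled and 47.3 and 46.9 FPKM in Itgb6-siRNA, lower without overlap, with a difference of -0.10 on the log2(FPKM + 1) scale (limma adjusted p = 0.467). With counts scaled by library size only, without TMM factors, the edgeR log2 fold change was still above 0, at 0.025. An FPKM is a count divided by the library total and by a length, so the 2 deposited values give back the length used for a gene in each library. For *Areg*, *Hbegf*, *Tgfa*, *Erbb2* and *Erbb3* this length was the same in all 4 libraries, namely 1215, 2375, 4527, 5012 and 6016 bases, and equal to that of an annotated transcript. For *Egfr* it was 5901 and 5936 bases in Scrambled and 6420 and 6478 bases in Itgb6-siRNA. The Itgb6-siRNA libraries were thus assigned a 1.09-fold longer mean *Egfr* transcript than the Scrambled libraries, and the 2 libraries of a group lay much nearer to each other than to the other group.

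The log2 difference in implied length was 0.12 (95% interval 0.090 to 0.16) with an unadjusted p of 0.000965 by limma, and it stayed between 0.12 and 0.13 when each library was left out. It did not hold after adjustment over the 6156 genes whose implied length varied between libraries (adjusted p = 0.554). No gene reached an adjusted p under 0.05 in that test by limma (0% of genes), 379 genes (6.16%) had an unadjusted p under 0.05, and 9 genes, *Egfr* among them, had a p at or under that of *Egfr*. The groups did not overlap in 35.9% of the 6156 genes, and 953 genes had a larger difference. This measure was chosen after the FPKM and the counts of *Egfr* were seen to differ in direction, and it is made from those same values. The sign, interval, p-value, rank and leave-one-out values of *Egfr* therefore restate that difference and are no independent support for it. The implied lengths of *Adam17* (4378 and 4443 bases in Scrambled, 4442 and 4428 bases in Itgb6-siRNA) and *Btc* (2823 and 2875 bases, 2876 and 2878 bases) differed far less between libraries.

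The *Egfr* lengths fall between those of annotated transcripts. GENCODE vM21 (GRCm38) lists 5 transcripts for *Egfr*. Egfr-201, of 10208 bases in 28 exons, encodes the full receptor, and Egfr-202, of 2943 bases in 16 exons, encodes a shorter product that ends in the extracellular part, before the membrane-spanning and kinase regions. Both share the first 1925 coding bases, up to chr11:16887185. There Egfr-201 is spliced to exon 17 (from position 16889913) and has a further 1705 coding bases, while Egfr-202 reads on from position 16887186 in what is intron for Egfr-201 and has 40 more. The letters around that point show what sets the transcripts apart, with the 15 shared coding bases in lower case and the first 15 bases of each transcript's own in capitals, 5′ to 3′ on the plus strand:
Egfr-201: agtgtggccatctggGCCAAAGATACCATC
Egfr-202: agtgtggccatctggGTACGTTCAATGGCA

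If only these 2 transcripts were present, the implied lengths would place Egfr-201 at 40.7% and 41.2% of *Egfr* molecules in Scrambled and at 47.9% and 48.7% in Itgb6-siRNA. The matching FPKM would be 20.2 and 21.1 in Scrambled and 22.6 and 22.8 in Itgb6-siRNA for Egfr-201, and 29.4 and 30.1 against 24.7 and 24.1 for Egfr-202. On that arithmetic the form with the kinase region would be the higher and the shorter form the lower in both Itgb6-siRNA libraries. The files hold no transcript-level values, the other annotated transcripts were left out of this calculation, and the authors' annotation is not stated, so the split is not a measurement.

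**Figure D3:**
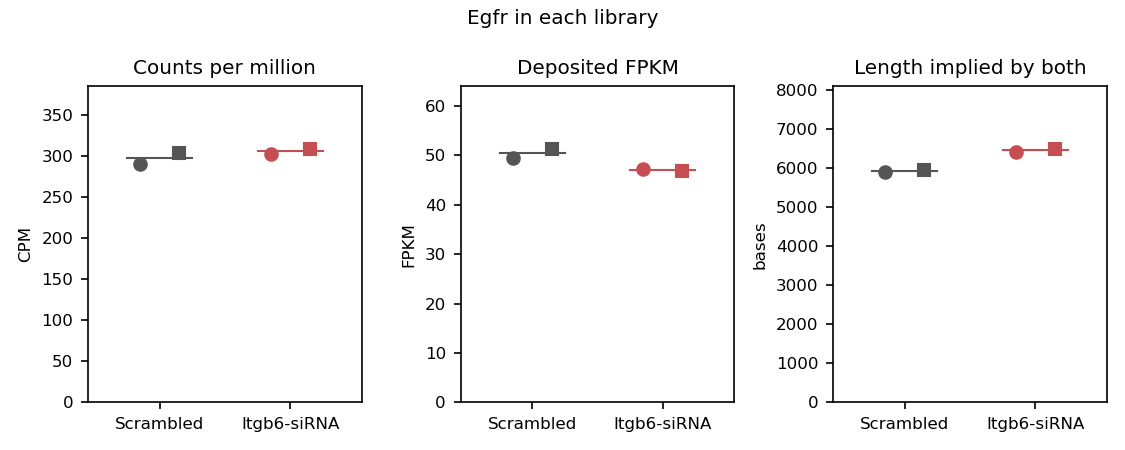
*Egfr* in each library as CPM, as deposited FPKM, and as the transcript length in bases that both values imply, each from 0. Circles are Scrambled replicate 2 and Itgb6-siRNA replicate 1, squares are replicate 3 of each group, and lines are group means (n = 2). CPM overlaps between the groups, FPKM is lower in both Itgb6-siRNA libraries, and the implied length is 5901 and 5936 bases in Scrambled and 6420 and 6478 bases in Itgb6-siRNA.

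*Adam17* (chr12:21323509-21373632, minus strand), which encodes the main sheddase of the ligands encoded by *Hbegf*, *Tgfa*, *Areg* and *Ereg*, had 976 and 938 counts in Scrambled and 901 and 1071 counts in Itgb6-siRNA. Its CPM values of 59.9 and 54.3 in Scrambled and 58.2 and 65.1 in Itgb6-siRNA overlapped. The difference of 0.11 on the log2 scale did not pass the test (SE 0.083, 95% interval -0.06 to 0.28, edgeR adjusted p = 0.510). *Adam17* overlaps *Iah1* on the opposite strand. No difference in any of the 9 transcripts speaks to the amount of protein or to shedding, which RNA-sequencing does not measure.

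The direction of the members ran with the base composition of their transcripts. The longest annotated transcripts of the 4 members with log2 fold changes below 0 had a GC content of 50.9% (*Tgfa*), 51.2% (*Erbb3*), 51.5% (*Hbegf*) and 57.3% (*Erbb2*). Those of the 4 members above 0 had 37.7% (*Btc*), 44.4% (*Egfr*), 45.1% (*Adam17*) and 48.4% (*Areg*). Over all genes the same was seen, with a median log2 fold change of -0.068 above 50% GC and 0.055 at or under 50%, and with 65.3% and 35.4% of genes below 0. With the trends on GC content and length removed from each library, *Hbegf* stood at -0.15 (edgeR adjusted p = 0.342), *Tgfa* at -0.073, *Erbb3* at -0.070, *Erbb2* at -0.060, *Adam17* at 0.089 and *Areg* at 0.16. *Egfr* then stood at -0.024 and *Btc* at -0.073, both with the sign turned.

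The rest of the pathway was followed in 6 lists of 107 further genes, 98 of them tested. At the study's thresholds 3 were lower and 5 higher in Itgb6-siRNA, or 8.16%, a share near the 9.57% of all genes, and their median log2 fold change was 0.006. Of the 8 genes called, 4 were in the list of negative regulators, and each of the other lists had 1 or none. Among the called genes, *Timp3* overlaps *Syn3* and *Phlda1* overlaps *Gm28592* on the opposite strand, and the others overlap no annotated exon. With the trends on GC content and length removed, 5 were called, and *Src*, *Socs4* and *Lrig3* were not. Without Scrambled replicate 2, 6 genes of the lists were called, and the lowest edgeR adjusted p among the 8 genes was 0.210 (*Spry4*).

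Among further ligands and receptors of the family, 3 of 7 genes were tested and none was called by edgeR, with 0 at an unadjusted p under 0.05. *Nrg1*, which encodes neuregulin, a ligand of ERBB3 and ERBB4, had 1911 and 2047 counts in Scrambled and 1859 and 1977 counts in Itgb6-siRNA (log2 fold change 0.027, interval -0.10 to 0.16). *Erbb4* had 15 to 22 counts and *Nrg4* 7 to 13 counts in any library. *Egf* itself had at most 8 counts, *Epgn* at most 4, *Nrg2* at most 1 and *Nrg3* none.

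Among 15 tested genes for shedding and trafficking of ligands, 1 rose. *Timp3*, an inhibitor of ADAM17, went from 66.0 and 73.3 CPM in Scrambled to 89.2 and 90.0 CPM in Itgb6-siRNA (log2 fold change 0.36, SE 0.075, edgeR adjusted p = 0.00296). *Cd9*, *Nrd1* and *Rhbdf1*, which encode partners of ligand precursors and of ADAM17, had log2 values of 0.072, -0.0010 and -0.035, and the protease gene *Adam9* had -0.15. None of these was called.

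Of 23 adaptors and members of the RAS-ERK relay, 1 fell. *Ptpn11*, which encodes the phosphatase SHP2 that carries the signal from receptor to RAS, had 103 and 91.1 CPM in Scrambled and 71.5 and 74.5 CPM in Itgb6-siRNA (log2 fold change -0.41, SE 0.075, edgeR adjusted p = 0.000964). The kinase genes *Map2k1* and *Mapk3* had log2 values of -0.16 and -0.12 and the GTPase gene *Rras2* 0.083, none past 1.2-fold. Of 15 genes of the PI3K, AKT and STAT branch, *Src*, a kinase that acts with EGFR, fell from 85.1 and 82.3 CPM to 64.9 and 67.7 CPM (log2 fold change -0.34, SE 0.074, edgeR adjusted p = 0.00557). With the trends on GC content and length removed, the value for *Src* was -0.19 (edgeR adjusted p = 0.200) and the call was lost. *Pdk1*, *Akt1* and *Stat3* had log2 values of 0.010, -0.13 and 0.055 and were not called. *Pdk1* stood in that list although its product is a pyruvate dehydrogenase kinase. The kinase that activates AKT is encoded by *Pdpk1*, also in the list, whose log2 value of 0.21 was under 1.2-fold.

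Of 26 negative regulators, 3 rose and 1 fell, or 15.4% called against 9.57% of all genes tested, a difference in share that was not tested. *Spry4*, a feedback inhibitor of RAS-ERK signalling, had the highest fold change of the 8 genes called, from 6.13 and 6.20 CPM in Scrambled to 10.5 and 10.3 CPM in Itgb6-siRNA (log2 fold change 0.76, SE 0.18, edgeR adjusted p = 0.0117). *Socs4*, which encodes an adaptor for degradation of EGFR, went from 60.1 and 74.5 CPM to 86.5 and 79.4 CPM (log2 fold change 0.30, edgeR adjusted p = 0.0347, DESeq2 adjusted p = 0.0818). The call of *Socs4* was lost with the trends on GC content and length removed (0.18, edgeR adjusted p = 0.287) and without Scrambled replicate 2 (0.15) or Itgb6-siRNA replicate 1 (0.24). *Socs5*, its near relative, and *Lrig3*, a relative of the receptor inhibitor LRIG1, passed the unadjusted threshold with log2 values of 0.41 and -0.44, but their adjusted p-values were 0.191 and 0.257 and neither was called by DESeq2. The other Sprouty genes *Spry1* and *Spry2* had log2 values of -0.19 and 0.27 and were not called, and *Rab7*, *Hgs*, *Usp8* and *Sh3kbp1*, which act in receptor traffic, lay between -0.088 and 0.082.

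Of 22 transcripts known to be induced by EGF receptor and ERK signalling, *Areg* and *Hbegf* among them, 18 were tested and 1 rose. *Phlda1* had 23.6 and 21.4 CPM in Scrambled and 28.9 and 28.7 CPM in Itgb6-siRNA (log2 fold change 0.35, SE 0.11, edgeR adjusted p = 0.0622). *Junb* went from 206 and 198 CPM to 173 and 172 CPM with an edgeR adjusted p of 0.0161, but its log2 fold change of -0.23 was under 1.2-fold. The ERK phosphatase gene *Dusp6* had a log2 value of 0.011, *Ier3* -0.072 and *Ccnd1* 0.12. The list thus held values on both sides of 0, with a median of 0.067.

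The KEGG term for ErbB signalling in the deposited annotation holds 87 genes, 8 of the 9 members among them (*Adam17* is not). Of its 72 genes tested, 3 were lower and 2 higher at the study's thresholds, or 6.94%, against 9.57% of all genes tested (5.2% lower and 4.37% higher). The median log2 fold change of the 72 genes was -0.037. The genes called were *Src*, *Abl1* and *Plcg2*, which were lower, and *Crkl* and *Shc4*, which were higher. These members were singled out by their calls and not by the rule for named genes.

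**Figure D4:**
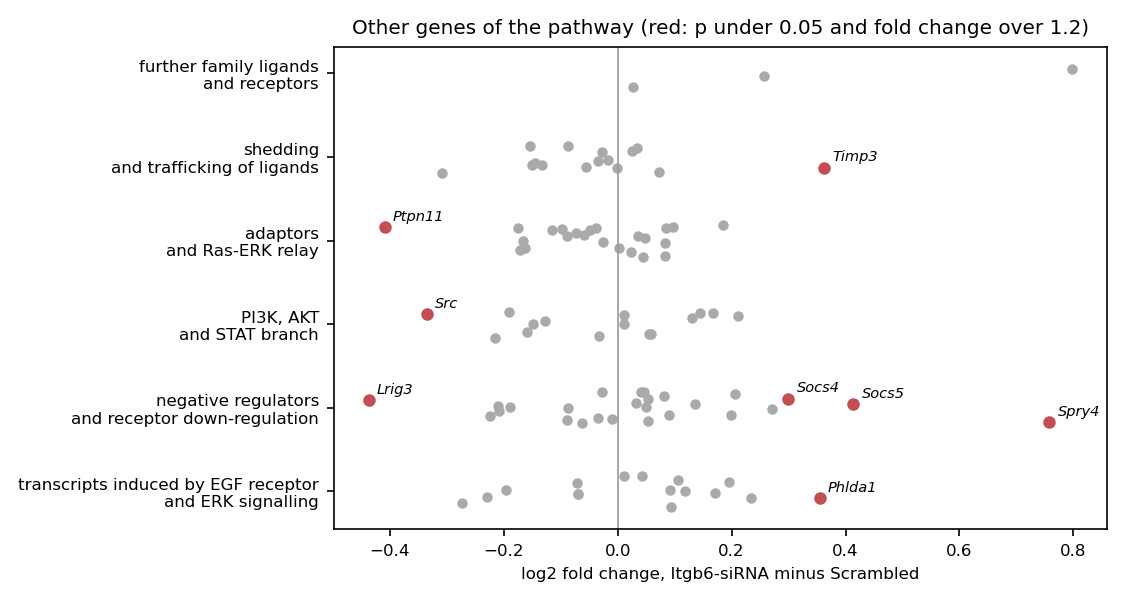
Log2 fold change, Itgb6-siRNA minus Scrambled (horizontal axis), of each tested gene in the 6 pathway lists, 1 point per gene with the vertical scatter within a list added for legibility. Red points are the 8 genes past both thresholds, and grey points are the others. The called genes are spread over 5 lists, with 5 values above 0 and 3 below.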

How the data were processed

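The authors sequenced polyadenylated RNA of 4 TKPT libraries in pairs, without strand, and deposited estimated counts per gene, not normalized, and FPKM, which they made from the same libraries. The aligner, counter, build and annotation are not given in the sources used here. Estimated counts were rounded to whole numbers and the counts of all members were whole as deposited. Genes were kept with filterByExpr (minimum count 10, minimum total 15), normalized by TMM and tested two-sided by quasi-likelihood (glmQLFit and glmQLFTest, edgeR 4.0.16, R 4.3.3), the 2 groups being fitted without covariates. Adjusted p-values are Benjamini-Hochberg values over all 11727 genes. The study's methods name edgeR and both thresholds. SEs and 95% intervals come from the fold change and the F statistic. Totals were 15435074 to 17220281 counts, and the common biological coefficient of variation was 0.0551. Interval and detection limits cover counting error and the spread of these libraries only.

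FPKM served to compare levels between genes. Limma 3.58.1 was run on log2(FPKM + 1) for 10319 genes and on the log2 length implied by count and FPKM, for genes with an FPKM of at least 1 and at least 10 counts in every library whose implied length varied by 0.01 or more on the log2 scale. Both were chosen after seeing the data. Transcripts, GC content, positions and overlaps came from GENCODE vM21 (GRCm38), which may not be the authors' annotation. GC content and length were known for 99.8% of genes tested.

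The members and lists were chosen with earlier results of these data known. Named genes were the 9 members, *Itgb6*, list genes that were called, up to 4 uncalled genes per list with the highest mean counts, and the 3 genes nearest in pattern to the member with the smallest p. *Spry1*, *Spry2*, *Pdpk1* and the genes of the KEGG term were named after their values were seen. Some genes that this rule names are not reported here. Alternatives were DESeq2 1.42.0, RLE factors, library size only, 2 filters, 2 call rules, leaving out each library, and removal of GC and length trends. Tested on simulated data for this comparison (11706 genes), the call took 39.4% of genes changed 1.2-fold, 91.5% of those changed 1.5-fold and 2.48% of unchanged genes. The simulated counts had no trend on GC content or length, unlike the data, so the share of unchanged genes called in these libraries may be higher. A change of exactly 1.2-fold lies on the threshold of the call, which by itself limits the share taken. The authors' own fold changes and p-values were not used.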

Additional observations from a re-analysis of the deposited data

How the results depend on the processing

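No member was called under any of the 12 alternatives run on the counts. The 2 call rules among them reused the main fit. The rule of a fold change over 1.5 could call no member once the 1.2-fold rule had called none. Over all genes, 610 lower and 512 higher genes became 383 and 320 with DESeq2, 295 and 247 with an adjusted p under 0.05 and no fold change threshold, and 110 and 125 with a fold change over 1.5. Leaving out 1 library gave 402 to 768 lower and 338 to 645 higher genes, the lowest of both without Scrambled replicate 2. Of the pathway lists, 8 genes were called, 1 with a fold change over 1.5, 5 with GC and length trends removed, and 6 to 10 with 1 library left out.

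The log2 fold change of *Hbegf* lay between -0.23 and -0.12 in all settings, with adjusted p-values from 0.171 to 0.745. That of *Erbb3* lay between -0.14 and -0.070, *Tgfa* between -0.17 and -0.057, *Erbb2* between -0.28 and -0.060, and *Adam17* between 0.032 and 0.19. The sign turned for *Areg* without Scrambled replicate 3 (-0.015, range -0.015 to 0.46 with 1 library left out), and for *Btc* without Scrambled replicate 3 (-0.16), without Itgb6-siRNA replicate 1 (-0.23) and with GC and length trends removed (-0.073), in a range from -0.23 to 0.28 with 1 library left out. It turned for *Egfr* with those trends removed (-0.024) and on the log2(FPKM + 1) scale (-0.096), an alternative added after seeing the data. *Itgb6* turned without Scrambled replicate 2 (0.038) and without Itgb6-siRNA replicate 3 (0.091), in a range from -0.10 to 0.091 with 1 library left out. The cause of these turns was not tested.

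The call of *Lrig3* was lost in all but the normalization and filter alternatives and 2 of the 4 in which a library was left out. *Socs4* was not called without Scrambled replicate 2 (0.15) or Itgb6-siRNA replicate 1 (0.24), *Socs5* without Scrambled replicate 2 or either Itgb6-siRNA library, and *Phlda1* without Scrambled replicate 3. *Timp3*, *Ptpn11*, *Src* and *Spry4* passed the unadjusted thresholds with any 1 library left out, where the lone library is assumed to vary like the other group. Their adjusted p-values did not stay under 0.05: without Scrambled replicate 2 they were 0.318, 0.232, 0.264 and 0.210, and without Scrambled replicate 3 those of *Src* and *Spry4* were 0.0680 and 0.0826.

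No paired analysis was possible because the groups share only replicate number 3. Levels from counts divided by a deposited gene length were not run, since the table gives no length. With 2 libraries per group, a 1.2-fold change of a member with few counts, such as *Areg* or *Btc*, is mostly below what the test can call, and the difference in the implied length of *Egfr* rests on 4 values.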
